A study of Homo sapiens with 4 samples.

Results

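The 6 genes described here encode the cytosolic chaperone HSP90 in its inducible and constitutive forms (HSP90AA1 and HSP90AB1), the HSP90 cochaperones AHSA1 and CHORDC1, the mitochondrial co-chaperonin HSPE1 and the small heat shock protein HSPB1. They were taken by symbol from the authors' deposited table of genes and their deposited table of transcripts, and they were chosen by the log2 fold changes and Q values they have there. All 6 were among the 684 genes of the gene table, and 7 transcripts of 5 of them were among the 1040 transcripts of the transcript table, while HSPB1 had no transcript there. The samples were 4 RNA sequencing libraries of LP-1, an established human multiple myeloma cell line that the labels describe as B lymphoblast, grown in medium with serum. In 2 libraries the cells carried HRP2 knockdown by a lentiviral guide RNA, and in the other 2 the cells were the Non-target control, in which no gene was targeted. HRP2 is a chromatin reader and the product of HDGFL2. According to its title, the series concerns HRP2 together with MINA in t(4;14) myeloma and the response to proteasome inhibitors. The labels give no clone, guide number, time after transduction or proteasome inhibitor treatment for any library.

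HSP90 is a dimeric ATPase that holds kinases, receptors and other client proteins in a form that can be activated. Cochaperones bind it in turn and set the pace of its cycle: AHSA1 stimulates the ATPase, CHORDC1 binds the nucleotide-binding end of HSP90, STIP1 carries clients over from HSP70, and FKBP4 is an immunophilin of the later complexes. HSPE1 is the lid of the mitochondrial chaperonin, whose barrel is HSPD1, and HSPB1 forms oligomers that keep unfolded proteins from aggregating. These genes are classical targets of the heat shock factor HSF1, which binds alternating repeats of the letters GAA and TTC in DNA, called heat shock elements. Myeloma cells make large amounts of secreted protein, and blocking their proteasome is known to raise heat shock genes.

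Both deposited tables give a log2 fold change of HRP2 knockdown over Non-target control and a Q value, and both hold only entries with a Q value under 0.05 ("called" below). No level per library was used here, so the spread between libraries, the depth, and the order of these genes by expression are unknown, and no value below has an SD. For the same reason the cell line could not be checked by the levels of its markers. Of 10 plasma cell markers, 4 were called as genes, all lower in the knockdown. Of 30 markers of T and NK, myeloid, erythroid and platelet, and stromal and endothelial cells none was called as a gene. Over all genes that the authors list as mRNA, 2.81% were called. Of the 10 plasma cell markers, 1 had called transcripts, 2 in number. Of the 7 stromal and endothelial markers, 1 had 1 called transcript. None of the other markers had one. The part of these markers in the values below was not tested. The targeted gene HDGFL2 had a log2 fold change of -1.37 (Q = 2.99e-13) in the authors' deposited table, which is 0.388 times the control. The labels do not say whether the libraries of a group were separate cultures, and the spread behind the Q values may be technical.

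The stretches of DNA that carry heat shock element letters at these genes are shown first, as the known binding letters of HSF1. The genes belong to a family known for such elements, so finding them here is no independent result. RefSeq promoter windows (build GRCh38.p14) run from 250 bases before to 50 after a listed start, and the 6 genes have 10 such windows. The short motifs searched were GAANNTTC and TTCNNGAA (2 alternating units). The long motifs (3 units) were GAA, TTC and GAA, or TTC, GAA and TTC, each unit set off from the next by NN, which stands for any 2 bases. The short motifs read the same on both strands, the long motifs are each other's reverse complement, and each long match contains 2 short ones. Capitals mark every base of a match, the spacer bases included, and each stretch is 30 bases read 5′ to 3′ on the strand of the window.
HSP90AA1, chr14:102087105-102087134, minus strand: tcTTCCGGAAGGTTCgggaggcTTCTGGAA
HSP90AB1, chr6:44247770-44247799, plus strand: ggagcaggTTCTGGAAGATTCatgggctcc
HSP90AB1, chr6:44247823-44247852, plus strand: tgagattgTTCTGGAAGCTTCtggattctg
CHORDC1, chr11:90223083-90223112, minus strand: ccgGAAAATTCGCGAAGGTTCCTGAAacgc
HSPB1, chr7:76302480-76302509, plus strand: ccttaacgagaGAAGGTTCcagatgagggc
HSPD1, neighbour of HSPE1, chr2:197500061-197500090, minus strand: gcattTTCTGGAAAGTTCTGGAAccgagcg

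The HSP90AA1 stretch ends 61 bases before the second of 2 listed starts, and it lies in an exon of 1 GENCODE 29 model of the gene. The HSP90AB1 stretches lie before the third of 3 listed starts, in introns of 3 GENCODE 29 models and in an exon of none of that gene's models. The CHORDC1 run joins 3 overlapping long matches, from -60 to -38 bases before the only listed start, and lies in an exon of 1 GENCODE 29 model. HSPB1 had a single short match, from -182 to -175, outside the GENCODE 29 models of the gene. HSPE1 and AHSA1 had no match in their own windows, which says only that these letters are not there. HSPE1 lies head to head with HSPD1, with 105 bases between the first listed starts of both, and a run of 18 matching bases stood in the window of a second HSPD1 start. That run is 294 to 311 bases before the HSPE1 start, beyond the edge of the HSPE1 window, in an exon of 1 GENCODE 29 model of HSPE1 and 1 of HSPD1.

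**Figure D1:**
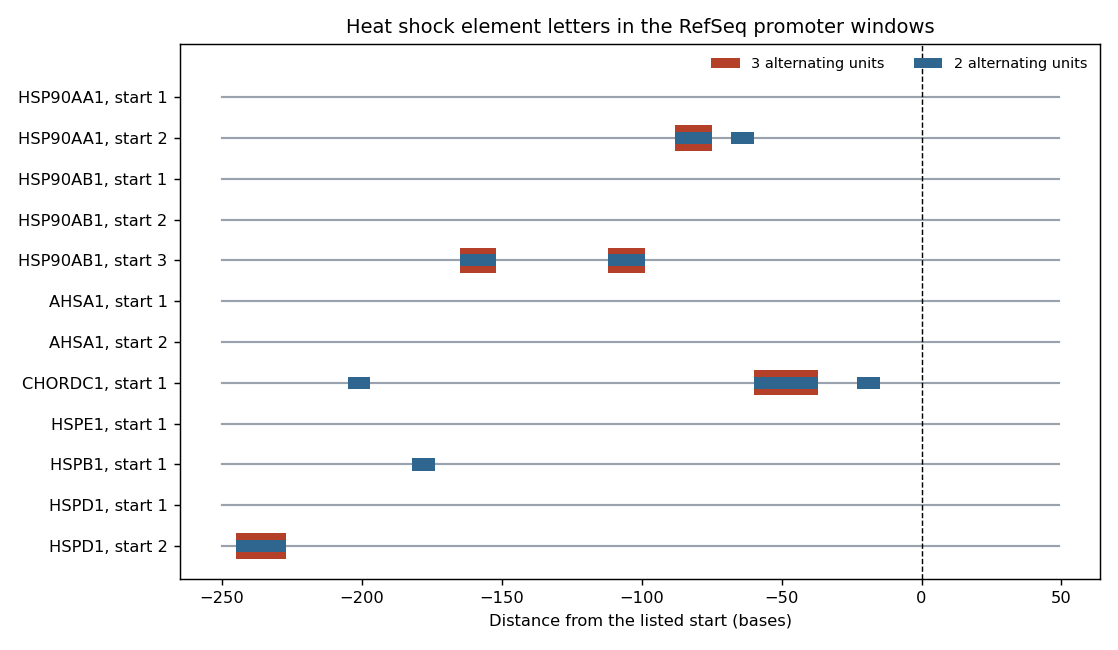
Matches to heat shock element letters in the RefSeq promoter windows of the 6 genes and of HSPD1, with distance from the listed start in bases on the x axis and 1 row per start, numbered from the most upstream (red, 3 units; blue, 2 units). Long matches stand at 1 start each of HSP90AA1, HSP90AB1 and CHORDC1 and at the second HSPD1 start, and none in the windows of AHSA1, HSPE1 and HSPB1.

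A match of 3 units was found in 3 of the 6 genes (50%) and 3 of their 10 windows (30%), against 166 of the 27305 genes with a window (0.608%) and 172 of all 35116 windows (0.49%). At the most upstream listed start of each gene only CHORDC1, 1 of the 6, held 3 units. A match of 2 units was found in 4 of the 6 genes (66.7%) and 40% of their windows, against 16.2% of all genes with a window and 13.5% of all windows. The 6 genes were chosen with their changes known and belong to a heat shock family, so these shares are a description. Counted over all called genes with a window, 8 of 295 higher genes (2.71%) and 1 of 256 lower genes (0.391%) held 3 units. The 8 were HSP90AA1, HSP90AB1, CHORDC1, 4 other chaperone genes (HSPA8, HSPA6, DNAJA1 and DNAJB6) and 1 gene outside the chaperone lists, HNRNPA2B1, an RNA-binding protein gene. The lower gene was the kinase gene PRKD2. Outside the lists, which were written with earlier results of these data known, 1 higher and 1 lower gene held 3 units. HNRNPA2B1 and PRKD2 are named because of their match, not by the rule for named genes. The short motif was found in 16.6% of higher and 12.9% of lower genes.

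**Figure D2:**
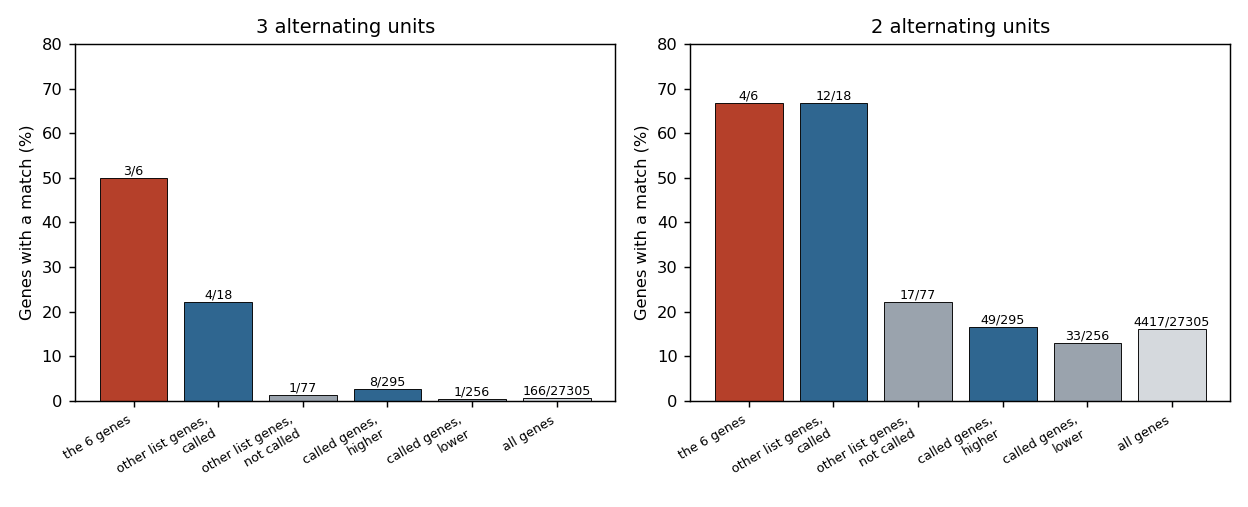
Percent of genes with a match in any RefSeq promoter window, for 3 units (left) and 2 units (right), in the 6 genes, the other genes of the 8 pathway lists that were called or not called, called genes that were higher or lower, and all genes with a window; bars are labelled with the genes that matched over the genes with a window. For 3 units the bars stand at 50% in the 6 genes, 22.2% in other called list genes, 1.3% in list genes not called and 0.608% in all genes.

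Each of the 6 genes was called and stood higher in the knockdown. Their median was 1.08 in log2 fold change, or 2.11 times the control level. Across the authors' deposited table the median of the higher genes was 0.66. Of the 24237 genes listed by the authors as mRNA, 2.81% were called and 1.49% were called higher. Whether each listed gene was tested is not given, and because being called led to the choice of the 6, nothing is read from their count. Among the called genes 52.8% were higher. A log2 fold change of 1 or more was reached by 4 of the 6 genes and by 58 of the 361 higher genes (16.1%), the 6 included. As the 6 were chosen by their log2 fold changes, this count and their median only describe them.

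HSP90AA1, the inducible cytosolic HSP90, had a log2 fold change of 1.16 (Q = 3.66e-06) in the authors' deposited table, or 2.24 times the control level. HSP90AB1, the constitutive paralogue, was at 1.51 times in the same deposited table (log2 fold change 0.59, Q = 0.00403). The inducible form thus stood 32nd from the highest of the 684 genes and the constitutive form 228th, and 62.9% of the higher genes had a larger log2 fold change than HSP90AB1. The gap between the paralogues was 0.57 in log2 fold change, or 1.48 times in fold, and it was not tested, since the deposited values carry no error. No word of 31 nucleotides was shared between the longest coding transcripts of the pair in GENCODE 29.

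CHORDC1, also known as morgana, had the largest change of the 6, at 2.55 times the control level in the authors' deposited table (log2 fold change 1.35, Q = 1.01e-09). It stood 17th of the 684 genes by log2 fold change and 9th by Q value. AHSA1, the activator of the HSP90 ATPase, was at 2.12 times (log2 fold change 1.08, Q = 6.43e-06, authors' deposited table). These values place both cochaperones beside HSP90AA1 and above HSP90AB1 in the order of changes.

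HSPE1, the mitochondrial member, was listed at 1.07 in log2 fold change (Q = 0.0001) by the authors' deposited table, which is 2.1 times the control. HSPB1, the small heat shock protein, was at 1.8 times (log2 fold change 0.85, Q = 0.000963, authors' deposited table). In the order of log2 fold changes HSPE1 stood 50th and HSPB1 84th. Called genes closest to the median of the 6 were MSMO1, a sterol demethylase gene, at 1.08 and ZNF416, a zinc finger gene, at 1.07 in the authors' deposited table.

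**Figure D3:**
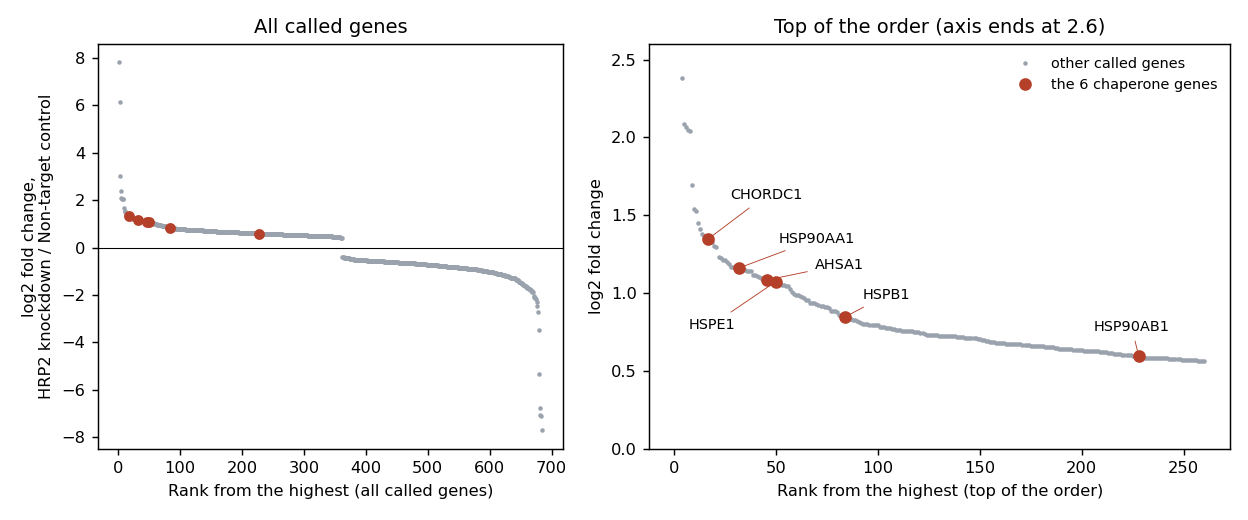
Log2 fold change of HRP2 knockdown over Non-target control (y axis) for all 684 called genes in order of value (left) and for the top of that order (right, y axis ending at 2.6); red points are the 6 chaperone genes and grey points the other called genes. CHORDC1, HSP90AA1, AHSA1 and HSPE1 lie between 1.07 and 1.35, HSPB1 at 0.85 and HSP90AB1 at 0.59.

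The transcript table held 7 transcripts of these genes, all 7 higher, where 51.0% of the 1040 called transcripts were higher. The genes were chosen partly by these values, so nothing is read from that count. For HSP90AA1 and HSPE1 the transcript values lay next to the gene values. NM_005348.3 of HSP90AA1 had a log2 fold change of 1.17 (Q = 0.000683) and NM_002157.2 of HSPE1 one of 1.08 (Q = 0.0496) in the authors' deposited transcript table, which differ from the gene values by 0.01 each. The HSPE1 Q value was close to the limit of 0.05. GENCODE 29 pairs each of these accessions with 1 transcript model of its gene.

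AHSA1 had 2 called transcripts that differed widely in size. NM_012111.2 was at 0.95 (Q = 0.017) and NM_001321441.1 at 10.98 (Q = 4.61e-06) in the authors' deposited transcript table, against 1.08 for the gene. The GENCODE models paired with them are 1402 and 1048 nucleotides long. Of the 31-nucleotide words of NM_001321441.1, 89% also occur in NM_012111.2, and 66% of the words of NM_012111.2 occur in NM_001321441.1.

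HSP90AB1 showed the same split. XM_024446421.1 was at 0.81 (Q = 0.00377) and NM_001271971.1 at 26.37 (Q = 1.42e-05) in the authors' deposited transcript table, against 0.59 for the gene. The value of NM_001271971.1 was the highest of all 1040 transcripts. Of these 1040, 823 had a log2 fold change of 6 or more in size. In 77 it was 20 or more in size, 60 higher and 17 lower. A value of that size cannot be turned into a level without the libraries' values, which were not used here, and the gene as a whole changed by 1.51 times. CHORDC1 had 1 called transcript, XM_017017541.2, at 2.19 (Q = 0.0125, authors' deposited transcript table), which is 0.84 above its gene value. Accessions that start with XM are RefSeq's predicted models. Without the transcripts at 6 or more, 5 of 5 were higher, with a median of 1.08. Among the 217 called transcripts under 6, 56.7% were higher. Because of how the genes were chosen, nothing is read from this count either.

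**Figure D4:**
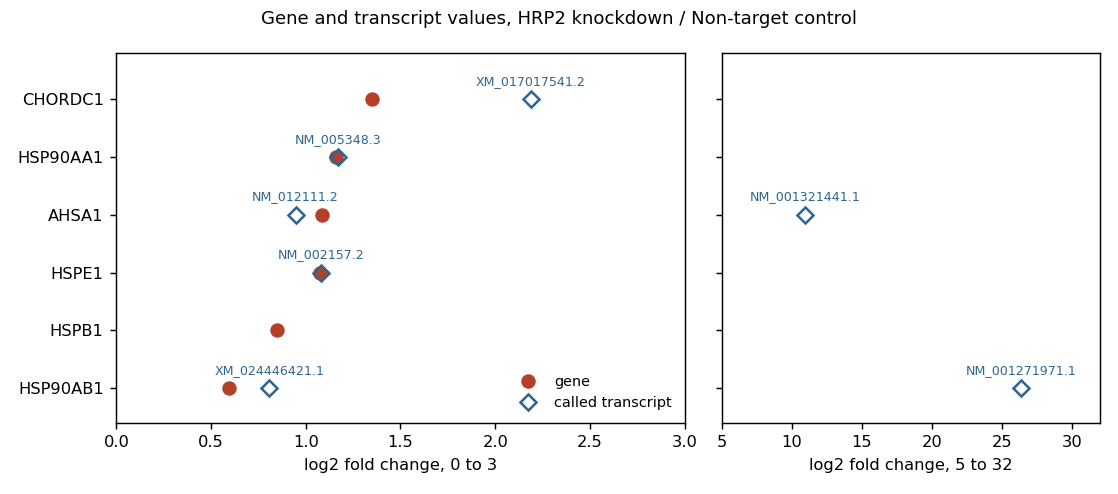
Log2 fold change of HRP2 knockdown over Non-target control for each gene (red circles) and its called transcripts (blue diamonds, with RefSeq accession), on an axis from 0 to 3 (left) and from 5 to 32 (right). HSP90AA1 and HSPE1 have transcript values of 1.17 and 1.08, beside gene values of 1.16 and 1.07, whereas AHSA1 and HSP90AB1 each have a second transcript, at 10.98 and 26.37.

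The remaining HSP90 machinery was called in part. Of 4 HSP90 paralogues, HSP90B1 of the endoplasmic reticulum and TRAP1 of the mitochondrion were not called as genes, although 1 TRAP1 transcript was at 2.54 (Q = 6.33e-06, authors' deposited transcript table). Of 29 cochaperones 6 were called, where 2.81% of all listed mRNA genes were called. The 6 include CHORDC1 and AHSA1, which were chosen for their values. Each was higher. The median of 0.87 in log2 fold change includes these chosen genes, so nothing is read from it. FKBP4 was at 1.34 (Q = 4.86e-07), close to CHORDC1, in the authors' deposited table. STIP1, the adaptor between HSP70 and HSP90, was at 0.62 (Q = 0.00404), CACYBP at 0.65 and NUDC at 0.58, all from the authors' deposited table. STIP1, CACYBP and NUDC lay under the median of all higher genes, 0.66, and FKBP4 lay above it. The other 23 of the list, among them CDC37, PTGES3, PPID and FKBP5, were not called and have no value.

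Transcripts of cochaperones that were not called as genes went both ways. SUGT1 had 1 at -9.18, and TSC1 had 1 at -9.13 and 1 at 22.63 in the authors' deposited transcript table. Such sizes were common among the called transcripts and cannot be turned into levels here. Of 18 HSP90 client genes 2 were called, where 2.81% of all listed mRNA genes were called. FGFR3, a receptor kinase gene of t(4;14) myeloma, was lower at -1.14 (Q = 8.73e-08) in the authors' deposited table. The SRC family kinase gene LYN was higher at 0.66 (Q = 0.0108) in the same table. Transcripts of client genes that were not called as genes also went both ways, with NR3C1 at -24.00 and -10.76, IGF1R at -8.50, CDK6 at -1.05 and BRAF at 9.59 in the authors' deposited transcript table. These are RNA amounts, and the stability of client proteins was not measured.

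Among 15 mitochondrial chaperones and proteases, HSPE1 and GRPEL1, the exchange factor of mitochondrial HSP70, were called, and GRPEL1 was at 0.77 (Q = 0.0187, authors' deposited table). HSPD1, which shares the promoter region with HSPE1, was not called as a gene, while 1 of its transcripts, NM_199440.1, was at 11.4 (Q = 1.22e-07) in the authors' deposited transcript table. HSPB1 was the only called gene of 11 small heat shock protein genes. None of 7 heat shock factors and regulators was called as a gene, and 1 transcript of HSF1 was at -10.17 (Q = 2.45e-06, authors' deposited transcript table). Over all listed mRNA genes 2.81% were called, so none of 7 is near that share. An uncalled gene is not shown to be unchanged. Sizes of 6 or more, as in these HSPD1 and HSF1 transcripts, were held by 823 of the 1040 called transcripts.

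Of 32 HSP70, HSP110 and HSP40 genes with their cofactors, 11 were higher and 1 lower. HSPA8 was at 1.69, HSPH1 at 1.41, DNAJA1 at 1.21 and DNAJB1 at 1.15 in the authors' deposited table, so that HSP90AA1, at 1.16, lay beside DNAJB1. The lower gene was HSPA13, at -0.87 (authors' deposited table). Of 14 subunits of prefoldin and of the chaperonin TRiC, which folds actin and tubulin, CCT5, TCP1 and PFDN6 were higher. They were at 0.68, 0.57 and 0.50 in the authors' deposited table. Over all 8 lists, HSP90 clients included, 28 of 129 genes were called, 26 higher and 2 lower. Without the 6 genes 22 of 123 were called, 20 higher and 2 lower. Of all listed mRNA genes 2.81% were called and 1.49% were called higher. Among the list genes other than the 6, 4 of the 18 called genes with a promoter window held 3 heat shock element units. Of the 77 genes not called, 1 did. The 2 units were held by 12 of the 18 and 17 of the 77. The lists were written with earlier results of these data known.

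**Figure D5:**
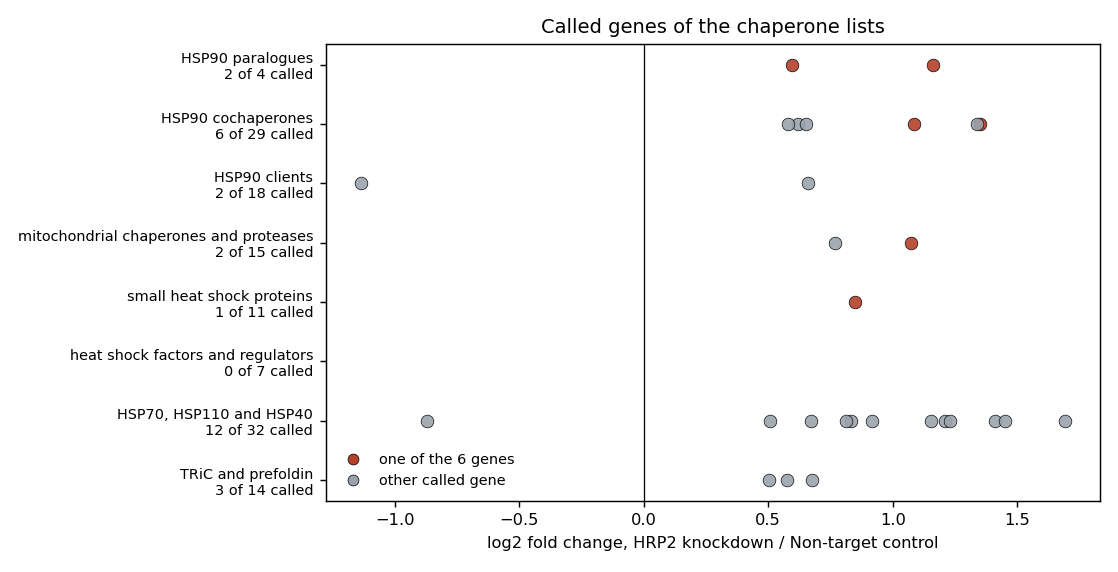
Log2 fold change of HRP2 knockdown over Non-target control (x axis) of the called genes of each of the 8 lists, HSP90 clients included. Rows give the number called of the number on the list. Red points are among the 6 genes and grey points are other genes. All but FGFR3 and HSPA13 lie above 0, and the cochaperone list runs from 0.58 for NUDC to 1.35 for CHORDC1.

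Base composition and shared sequence were measured beside these values. When the called genes were divided by the GC content of their transcripts, 75.7% were higher in the lowest quartile, 73.4% in the second, 47.3% in the third and 14.8% in the highest. CHORDC1, at 36.3% GC, was in the lowest quartile, and HSP90AA1, HSP90AB1, AHSA1 and HSPE1, at 44.3% to 50.2%, were in the second. HSPB1, at 62.2%, was in the highest quartile, where 25 of 169 genes were higher. The part of GC content in the 6 values was not tested.

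Most of these genes share sequence with pseudogenes or other copies. Of the 31-nucleotide words in the longest coding transcript, 36.1% for HSP90AA1, 40.1% for HSP90AB1, 31.5% for HSPE1, 19.1% for HSPB1 and 7.2% for CHORDC1 occurred in transcripts of other genes in GENCODE 29, and none did for AHSA1. The leading partners were the pseudogenes HSP90AA2P (26% of HSP90AA1 words), HSP90AB3P (31.1% of HSP90AB1 words) and HSPB1P1 (15.5% of HSPB1 words), and the readthrough gene HSPE1-MOB4 (17.7% of HSPE1 words). Of these partners the authors' list of genes holds HSPE1-MOB4 alone, which was not called; the 3 pseudogenes are not on that list and have no value. The words of CHORDC1 were spread over 613 other genes, and no single gene held more than 5.09% of them. Of these genes 19 were called, DNAJB6 and the targeted HDGFL2 among them, where 2.81% of all listed mRNA genes were called. Nothing is read from that count. How the authors' counting divided such reads was not tested. AHSA1, with no shared word, was at 2.12 times the control level. That value says nothing about the genes with shared words, and the part of shared sequence in their values was not tested.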

How the data were processed

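RNA of 4 LP-1 libraries, 2 of HRP2 knockdown and 2 of Non-target control cells, was extracted with Trizol and sequenced by BGI protocols, per the labels' protocols. The submitters' processing notes name BWA, Bowtie2, RSEM and hg19. Roles, versions, annotation, strandedness, filters, normalization and the test behind Q are each not given in the labels or notes used here. Log2 fold changes were deposited by the authors per gene (684) and per transcript (1040), knockdown over control by the group stems of the titles. The Q values, which by that name are adjusted p-values, are likewise as deposited by the authors (largest 0.0495 for genes and 0.0497 for transcripts). The other deposited tables hold names only. No per-library value was used, so the planned count tests were not run and the depth is unknown.

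The 6 genes and all gene lists were chosen with earlier results of these data known. Named were HDGFL2, the 6 genes with every entry they have, up to 4 called genes of each list by Q value, and the called genes next to the median of the 6. Transcripts of list genes, and CACYBP, NUDC, HSPA13, HSPA6 and DNAJB6, were named after their values were seen. Gene IDs were matched to RefSeq (GRCh38.p14) for names and promoter windows (295 of 361 higher and 256 of 323 lower genes had one). GC content was the median over protein-coding transcripts of GENCODE 29 (676 of 684 genes). The motif search was tested on simulated sequences. Python 3.11.15, pandas 2.3.3 and matplotlib 3.10.9 were used.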

Additional observations from a re-analysis of the deposited data

How the results depend on the processing

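All 6 genes stayed called at a Q value under 0.01, 5 at a Q value under 0.001 (without HSP90AB1) and 4 at a size of 1 or more in log2 (without HSPB1 and HSP90AB1). The median of the 6 ranged from 1.07 to 1.08 when each gene was left out in turn, and was 1.12 for the 4. The 6 genes were chosen by these same values, so these counts and medians only describe them. Over the 8 lists, higher genes numbered 18 at a Q value under 0.01, and 11 higher and 1 lower at a size of 1 or more in log2, against 26 and 2. The cochaperone list then held 5 and 3 higher genes, against 6. The number of the 6 genes with 2 heat shock element units was 4, with or without the bases after the start, and 2 when only the most upstream listed start was searched, or 1 with 3 units, alternatives chosen after seeing the data, because the HSP90AA1 and HSP90AB1 matches belong to later starts. Transcript medians for AHSA1 (5.96) and HSP90AB1 (13.59) depended on 1 transcript each. No paired analysis was possible because the deposited tables hold no value per library, and for the same reason no library could be left out. The unknown depth limits what can be said of genes that were not called.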
